A study of Mus musculus with 4 samples.

Results

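The immunoglobulin kappa light chain locus (Igk) on mouse chromosome 6 held 23 of the 29116 CTCF regions found by ChIP-seq, the sequencing of DNA recovered by chromatin immunoprecipitation, in WEHI-231 cells. A region is a stretch of the mouse build mm9 covered by peaks of 1 or more of the 4 libraries that overlap by at least 1 bp. Regions were counted in the locus where their centre lay between 67500 and 70750 kb on chromosome 6, a span of 3.25 Mb set by position. The locus was chosen with earlier results of these lists known. The 2 TFII-I KD libraries came from WEHI-231 cells in which the transcription factor TFII-I was stably knocked down, which the design text writes as shTFII-I. The 2 control libraries came from WEHI-231 cells labelled CT. Both cell types are one mouse B cell lymphoma line from a (BALB/c x NZB)F1 animal, grown in the same medium for a limited number of passages and precipitated with the same commercial CTCF antibody. The labels do not say what the control cells carry, whether the knockdown line is 1 clone, or whether the 2 replicates of a group are separate cultures, so the spread between replicates may be technical. How far TFII-I itself was reduced was not examined here. The series title is about CTCF and its targeting by TFII-I, and the locus was examined here for where CTCF peaks lie and which of them were called after knockdown.

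The kappa light chain is assembled in developing B cells by joining 1 of many variable (V) segments to 1 of a few joining (J) segments, which lie next to the single constant gene, Igkc. The gene table used for names lists 102 V segments, 60 V segment pseudogenes, 5 J segments and Igkc. CTCF is a zinc finger protein that anchors chromatin loops, and in the mouse the elements Cer and Sis, between the V and J segments, are CTCF-bound elements known to shape which V segments are used. In mm9 the V segments run up to about 70650 kb, and Cer, Sis, the J segments and Igkc follow. WEHI-231 carries a surface immunoglobulin with a kappa chain, so at least one allele is rearranged, and distances on the reference genome need not be distances in these cells. Without an mm9 annotation or genome sequence, regions were placed by position alone and were not assigned to single V segments, to Cer, to Sis or to Igkc.

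Peaks in the locus were fewer in the TFII-I KD lists than in the control lists. TFII-I KD replicates 1 and 2 had 10 and 6 peaks there, and control replicates 1 and 2 had 13 and 16. The means were 8.0 ± 2.83 peaks in TFII-I KD cells and 14.5 ± 2.12 peaks in control cells (SD, n = 2 each), a difference of -6.50 peaks. Both TFII-I KD values lay below both control values. The two-sided exact permutation test gave p = 0.333, the smallest value that 2 libraries against 2 allow. The TFII-I KD mean was 55.2% of the control mean in the locus and 71.1% over the complete lists. The locus took 0.0524% and 0.0392% of the peaks of TFII-I KD replicates 1 and 2 (95% Clopper-Pearson intervals 0.0251 to 0.0964% and 0.0144 to 0.0853%). In control replicates 1 and 2 it took 0.0531% and 0.0670% of the list (0.0283 to 0.0908% and 0.0383 to 0.109%), so all 4 intervals overlap. These intervals cover counting error only. The TFII-I KD lists were also shorter as a whole, and the direction turned at equal length. With each list limited to its 15309 strongest peaks, the length of the shortest list, the locus had 9 and 6 peaks in TFII-I KD replicates 1 and 2 and 7 and 6 peaks in control replicates 1 and 2.

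The authors' score of a peak is at least 50 and at most 3100 in these lists, and most peaks in the locus scored low. In TFII-I KD replicate 1 the scores in the locus had a lowest value of 53.0, a median of 78.1 and a highest of 120.89, beside a median of 85.5 over the whole list. In TFII-I KD replicate 2 they had a lowest value of 52.53, a median of 65.0 and a highest of 71.54, beside a list median of 79.1. In control replicate 1 the lowest, median and highest were 56.25, 93.9 and 177.38, beside a list median of 111, and in control replicate 2 they were 51.35, 75.9 and 226.95, beside 107. Peaks above the median of their own list numbered 4 of 10 and 0 of 6 in TFII-I KD replicates 1 and 2, and 5 of 13 and 3 of 16 in control replicates 1 and 2. The sources used here give neither the definition of the score nor the sequencing depth, so scores of different libraries may not be on one scale. Scores are printed as deposited, and each library's score is also given as a percentile within its own list, where 100 is the strongest peak. The lists differ in length, and a percentile within a list of another length is not the same measure.

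**Figure D1:**
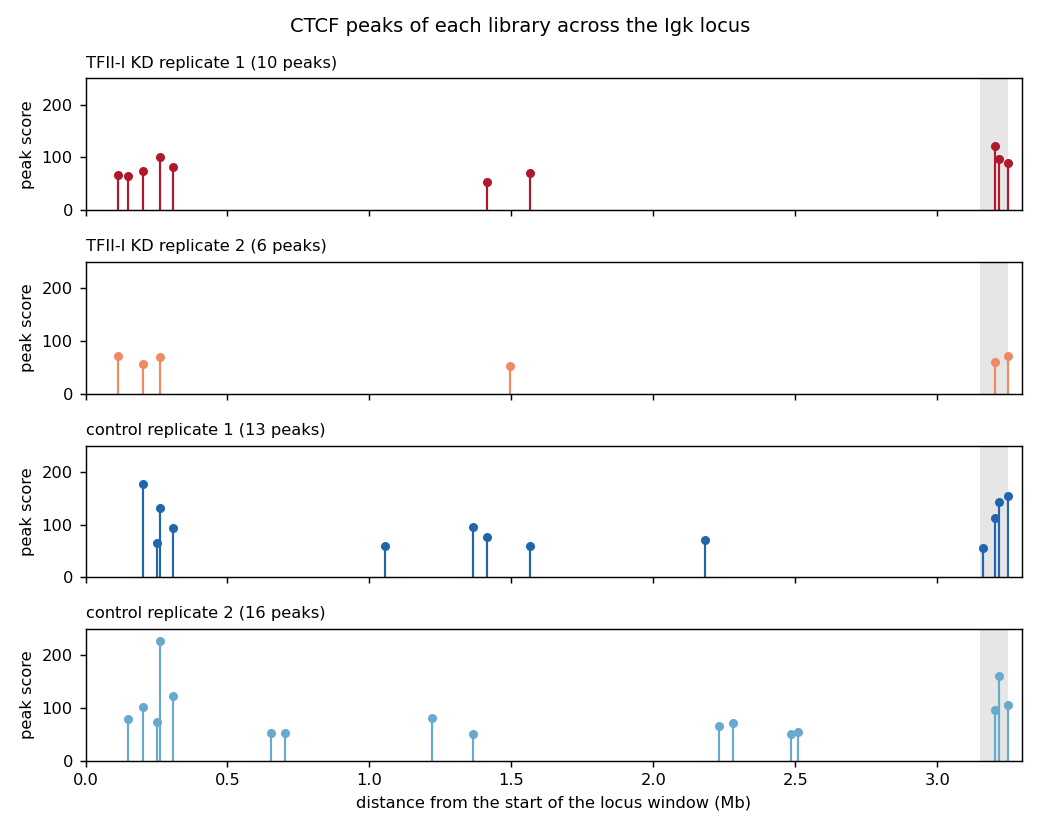
Peaks of the 4 libraries across the Igk locus, with the distance from the start of the locus window in Mb on the x axis and the authors' peak score on the y axis. Each stem is 1 peak, and the grey band marks the last 100 kb, which follow the V segments. The peaks with scores over 100 stand at both ends of the locus, and the 14 regions of the stretch between them have peaks that score 95.24 or less.

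Regions called in 3 or more libraries lay at both ends of the locus. The first 6 regions fell within 194 kb at the distal end, the end farthest from Igkc, and 3 of them were called in at least 3 libraries. The last 3 regions fell within 45.4 kb at the Igkc end, and each was called in at least 3 libraries. Over the 2.89 Mb between these 2 groups there were 14 regions, 11 called in a single library and 3 called in 2. This stretch lies between neighbouring regions called in 3 or more libraries, so no region inside it could have more than 2 calls. In all, 6 of the 23 regions (26.1%) were called in 3 or more libraries, against 62.7% of all regions. The number called in every library was 4 of 23 (17.4%, 95% Clopper-Pearson interval 4.95 to 38.8%), against 40.3% of all regions. A single library called 11 of the 23 (47.8%, 26.8 to 69.4%), against 20.0% of all regions. With lists of equal length the locus had 11 regions, and the share called in all 4 libraries was 4 of 11 (36.4%, 10.9 to 69.2%), against 37.7% of all regions. The share called in 3 or more was then 54.5%, against 58.5% of all, and the share called in 1 library alone 36.4% (10.9 to 69.2%), against 23.7% of all. With equal lengths the stretch between 67808 and 70703 kb held 3 regions, each called in a single library. No test was made of these shares, since the locus was chosen with earlier results of these lists known.

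At the distal end, chr6:67614264-67614702 was called in both TFII-I KD libraries and in neither control. Its scores were 66.5 and 71.43 in TFII-I KD replicates 1 and 2, at percentiles 26.3 and 39.2 of those lists. The nearest calls of control replicates 1 and 2 were 89.4 and 34.3 kb away. The next region, chr6:67649004-67649265, scored 64.35 in TFII-I KD replicate 1 and 78.6 in control replicate 2 and was not called in the other libraries. A region called in TFII-I KD replicate 2 alone, with a score of 55.7, lay 0.158 kb before the start of the window and was not counted.

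The region chr6:67704030-67704647 was called in all 4 libraries. It scored 73.95 and 57.12 in TFII-I KD replicates 1 and 2, and 177.38 and 101.31 in control replicates 1 and 2. These scores stand at percentiles 36.4 and 13.3 of the TFII-I KD lists and 81.7 and 45.5 of the control lists, with both TFII-I KD values below both control values. With lists of equal length the percentiles were 20.72 and 13.34 in TFII-I KD cells and 70.72 and 15.03 in control cells, which overlap. Beyond it lay the closest pair of neighbours in the locus, with centres 11.6 kb apart. The first of the pair, chr6:67750709-67751307, was called in both controls, with scores of 64.68 and 73.23, and in neither TFII-I KD library. The second, chr6:67762313-67762810, was called in all 4 libraries. It scored 101.2 and 70.60 in TFII-I KD replicates 1 and 2, and 132.32 and 226.95 in control replicates 1 and 2. Its percentiles were 65.2 and 36.9 in the TFII-I KD lists and 62.6 and 93.6 in the control lists, where the groups overlap. The distal group ended with chr6:67807835-67808434, which scored 82.27 in TFII-I KD replicate 1, had no call in TFII-I KD replicate 2, and scored 93.9 and 123.1 in control replicates 1 and 2.

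Between 67808 and 70703 kb peaks were scattered and low. The limits are regions called in 3 or more libraries, so each region between them had at most 2 calls by construction. Most of the V segment region lies in this stretch, which also runs past 70650 kb and includes the region chr6:70659345-70659738. The 14 regions there rested on 17 peaks, 2 and 1 of them in TFII-I KD replicates 1 and 2, and 6 and 8 in control replicates 1 and 2. None of these peaks had a score over 95.24. The region chr6:68865427-68865976 scored 95.24 in control replicate 1 and 51.35 in control replicate 2. Neither TFII-I KD library called this region, and their nearest calls were 48.1 and 129 kb away. The other 2 regions with calls in 2 libraries were shared between TFII-I KD replicate 1 and control replicate 1. They were chr6:68913922-68914492, with scores of 53.0 in TFII-I KD and 76.31 in control, and chr6:69063346-69063673, with scores of 70.91 in TFII-I KD and 60.18 in control. Of the 11 regions called once, 1 was called in TFII-I KD replicate 2, 3 in control replicate 1 and 7 in control replicate 2. Over all regions, 961 and 598 were called in TFII-I KD replicates 1 and 2 alone, and 2319 and 1947 in control replicates 1 and 2 alone. With lists of equal length the stretch held 3 regions. They were called in TFII-I KD replicate 1, TFII-I KD replicate 2 and control replicate 1, each alone. The longest interval with no region in any library was 650 kb, from chr6:70008980-70009423, called in control replicate 2 with a score of 54.63, to chr6:70659345-70659738.

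The stretch from 70650 kb to the end of the window, which holds Cer, Sis, the J segments and Igkc by position, had 4 regions. Whether a region covers one of these elements, or lies before or beyond them, was not determined. The first, chr6:70659345-70659738, was called in control replicate 1 alone with a score of 56.25, at percentile 6.69 of that list. The region chr6:70702314-70703006 was called in all 4 libraries. It scored 120.89 and 59.49 in TFII-I KD replicates 1 and 2, and 112.18 and 97.07 in control replicates 1 and 2. The 2 TFII-I KD values, at percentiles 78.8 and 17.8, lay on either side of the control values, at 50.8 and 42.5.

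The region chr6:70718564-70719188, with its centre 16.2 kb farther on, scored 97.34 in TFII-I KD replicate 1, at percentile 62.0, and was not called in TFII-I KD replicate 2. It scored 142.57 and 160.75 in control replicates 1 and 2, at percentiles 67.9 and 78.7. The last region, chr6:70747743-70748354, was called in all 4 libraries. It scored 90.15 and 71.54 in TFII-I KD replicates 1 and 2, at percentiles 55.1 and 39.4, and 153.94 and 106.62 in control replicates 1 and 2, at percentiles 72.8 and 49.5. The first region past the window, centred 5.10 kb beyond it, was also called in all 4 libraries. It scored 68.85 and 59.88 in TFII-I KD replicates 1 and 2, and 65.9 and 60.64 in control replicates 1 and 2.

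**Figure D2:**
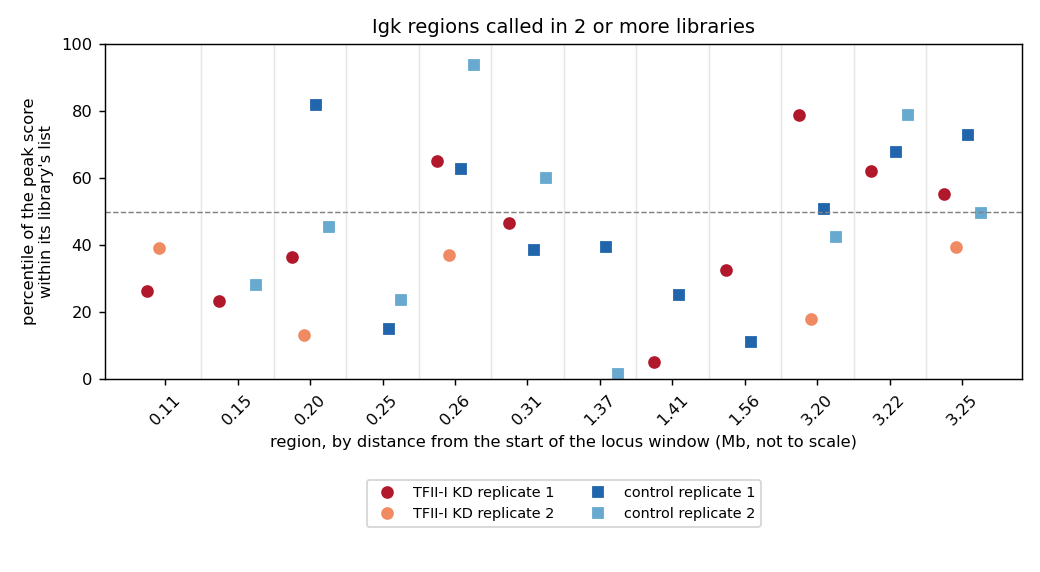
The 12 regions of the Igk locus called in 2 or more libraries, in genomic order and named by their distance from the start of the window, with the percentile of the peak score within each library's list on the y axis. Circles are the TFII-I KD libraries, squares the control libraries, a missing symbol is a missing call, and the dashed line is the middle of a list. Points of TFII-I KD replicate 2 lie below the line in each of the 5 regions it shares, and at the region centred at 70703 kb the 2 TFII-I KD replicates stand at 78.8 and 17.8.

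On regions called in both controls, a TFII-I KD call was usually found too. Of the 8 regions called in both controls, 6 were called in TFII-I KD replicate 1 and 4 in TFII-I KD replicate 2, while 77.6% and 64.1% of all regions called in both controls were called in these libraries. Called in neither TFII-I KD library were 2 of the 8 (25.0%, 95% Clopper-Pearson interval 3.19 to 65.1%), against 14.8% of all such regions. Both ranked low by their mean percentile in the control lists. The region at 67751 kb stood at percentiles 15.0 and 23.7 of control replicates 1 and 2. The region at 68866 kb stood at 39.4 and 1.46, so its mean joins unlike values. The region at 67751 kb belonged to the weakest 10th of regions called in both controls, of which 48.2% had no TFII-I KD call, and the region at 68866 kb to the next 10th, of which 32.5% had none. At equal list length the locus had 0 control-specific regions of this kind. The count was 4 without TFII-I KD replicate 1, 9 without control replicate 1 and 5 without control replicate 2. Leaving out a library drops a condition of the definition by construction, and the matching shares over all regions are not given here. Of the 13 regions called in a single control library, 3 were called in a TFII-I KD library, against 35.7% of all such regions.

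The reverse pattern, a call in both TFII-I KD libraries and in neither control, was met by the region at 67614 kb, which was 1 of the 5 regions of the locus called in both TFII-I KD libraries (interval 0.505 to 71.6%). Over all regions called in both TFII-I KD libraries this share was 1.14%, or 142 of 12429. A count of 1 does not set the locus apart. Its 2 peaks were 211 bp wide in TFII-I KD replicate 1 and 439 bp wide in TFII-I KD replicate 2, and with a required reciprocal overlap of 50% they were no longer joined and the count was 0. Without TFII-I KD replicate 1 the count was 2.

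The relative rank of the 4 regions called in every library did not pass the test for a difference between the groups. Ranks by score within each library were turned into normal scores, on which 1 unit is 1 SD, and fitted with limma over all 11741 regions called in 4 libraries. The difference of TFII-I KD minus control was -0.87 ± 0.74 (SE) at 67704 kb, with an adjusted p of 0.822. It was -0.70 ± 0.72 at 67763 kb, 0.43 ± 0.74 at 70703 kb and -0.08 ± 0.73 at 70748 kb, with limma adjusted p of 0.864, 0.937 and 0.991. Over all regions limma also called none (0%), with 977 (8.32%) at an unadjusted p under 0.05. In simulated data of the same size the fit found 55 of 200 regions changed by 2 units, so a change of the size seen here would mostly be missed.

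As percentiles within the complete lists, the 4 regions averaged 24.9 ± 16.3 in TFII-I KD cells and 63.6 ± 25.6 in control cells at 67704 kb (SD, n = 2 each). At 67763 kb they were 51.1 ± 20.0 in TFII-I KD cells and 78.1 ± 21.9 in control cells. At 70703 kb the values were 48.3 ± 43.2 in TFII-I KD cells and 46.6 ± 5.84 in control cells, and at 70748 kb they were 47.2 ± 11.1 in TFII-I KD cells and 61.2 ± 16.4 in control cells. The region at 67704 kb was the only one of these 4 where the groups did not overlap, and both TFII-I KD percentiles also lay below both control percentiles in 28.9% of all 11741 regions. The median difference of the 4 regions was -20.4 points, beside -7.26 points over all 11741 regions, and 3 of 4 regions were negative, as were 66.5% of all. Leaving out a library moved this median to between -35.0 (without TFII-I KD replicate 1) and -8.68 (without TFII-I KD replicate 2), with -11.5 without control replicate 1. With lists of equal length it was -7.73 points, beside -0.501 over all 8444 regions then called in 4 libraries, and the groups overlapped in each of the 4 regions of the locus. The differences were then -25.8 at 67704 kb, -18.3 at 67763 kb, 29.9 at 70703 kb and 2.81 at 70748 kb, so the signs were split.

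The locus was thinly covered beside the sequence that follows it. It had 7.08 regions per Mb, against 8.92 per Mb in the 3.25 Mb before it and 21.8 per Mb in the 3.25 Mb after it. With lists of equal length these values were 3.38 in the locus, 7.38 before it and 17.5 after it, and with scores of at least 100 they were 1.85, 4.92 and 14.8. Neighbouring centres were a median of 48.7 kb apart in the locus, against 54.9 kb in the flank before it and 21.8 kb in the flank after it, and 29.1 kb over the autosomes. Of the regions before the locus, 13 of 29 (44.8%) were called in all 4 libraries and 5 in 1 alone, and of those after it 41 of 71 (57.7%) and 13. At equal length the shares called in all 4 libraries were 36.4% in the locus, 41.7% before it and 45.6% after it. Regions called in both controls numbered 8 in the locus, 19 before it and 56 after it, and 2 of the 19 and 6 of the 56 had no TFII-I KD call.

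**Figure D3:**
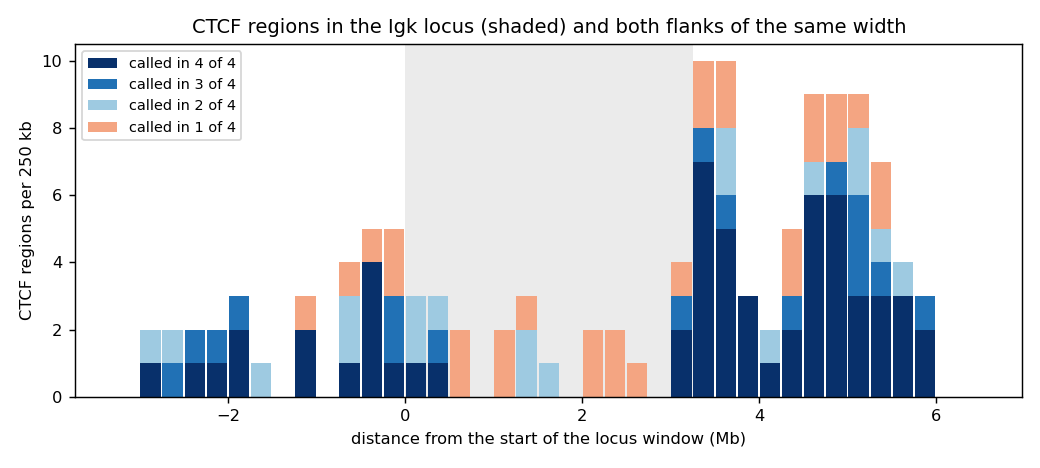
CTCF regions per 250 kb in the Igk locus (shaded) and in flanks of 3.25 Mb on either side, by distance in Mb from the start of the locus window. Colours give the number of libraries with a call. Dark bars, for regions called in all 4 libraries, stand at both ends of the shaded part and are missing over the 2.94 Mb between, while single-library regions are spread through it.

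Few single autosomal intervals between shared regions were as long as the longest of the locus. Regions called in all 4 libraries left an interval of 2.94 Mb inside the locus, from 67763 to 70703 kb, and 90 of the 11429 autosomal intervals between such regions (0.787%) were at least as long. With lists of equal length the interval was also 2.94 Mb, and 116 of 8230 (1.41%) were at least as long. For regions called in 3 or more libraries the interval was 2.89 Mb, matched or passed by 64 of 17753 (0.361%), and for regions called in both controls it was 1.84 Mb, matched or passed by 152 of 20233 (0.751%). The longest interval with no call in any library, 650 kb, was matched or passed by 569 of 28162 (2.02%). These intervals were singled out after the positions had been seen, so their shares are descriptions. Each share sets the longest interval of the locus against all single intervals. For regions called in all 4 libraries the median autosomal interval was 73.3 kb.

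When the autosomes were divided into 739 windows of the same width that hold at least 1 region, the number of regions in the locus lay below the median of the windows. The median window had 31.0 regions, and 283 windows (38.3%) had 23 or fewer. Regions called in all 4 libraries numbered 13.0 in the median window, and 133 windows (18.0%) had the 4 of the locus or fewer. In the median window 40.4% of the regions were called in all 4 libraries, and 45 windows (6.09%) were at or below the 17.4% of the locus. Regions called in 1 library alone made up 19.8% of the median window, and 25 windows (3.38%) were at or above the 47.8% of the locus. These windows include some with few regions, where shares vary widely. Among the 147 windows with 18 to 28 regions, 7 were at or below the locus for the share called in all 4 libraries. For the share called in 1 library alone, 1 of the 147 was at or above the locus, both from the complete lists. The position of the locus among the windows depended on the list lengths. At equal length 162 of 734 windows (22.1%) had as few regions, 49.0% of windows were at or below its share called in all 4 libraries, and 13.4% were at or above its share called in 1 library alone.

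**Figure D4:**
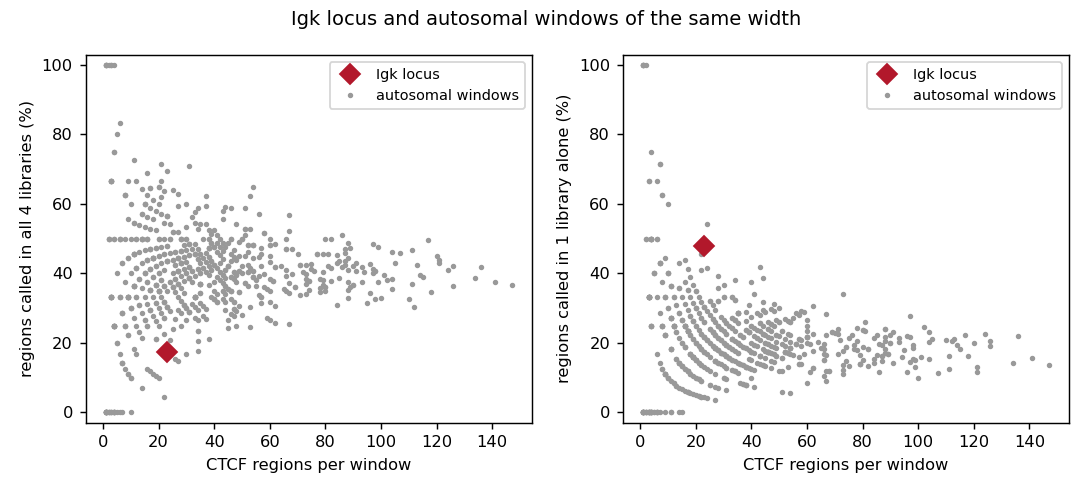
The Igk locus (diamond) among 739 autosomal windows of 3.25 Mb (dots), with the number of CTCF regions per window on the x axes and the share of them called in all 4 libraries (left) or in 1 library alone (right) on the y axes. The locus, with 23 regions, stands at 17.4% on the left and 47.8% on the right, both from the complete lists.

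Peaks of different libraries on the same region were closely aligned. In the 12 regions with calls in 2 or more libraries, the outermost peak centres were a median of 61.5 bp apart, with a range of 5 to 148 bp. Peaks were narrower in TFII-I KD replicate 1, with a median width of 269 bp in the locus and 328 bp over its list. The medians in the locus were 472 bp in TFII-I KD replicate 2, 448 bp in control replicate 1 and 454 bp in control replicate 2, beside list medians of 446, 483 and 507 bp.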

How the data were processed

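CTCF ChIP-seq was measured in 4 libraries, and 1 peak list per library was deposited, which was read as a separate peak call for each sample. Per the submitters' processing notes BWA, HOMER and the build mm9 were used, without roles or versions. The deposited peak names carry the word MACS, and no input library or parameters are given in the sources used here. The deposited score per peak is the authors' own value, and its definition is not given in the sources used here. Lists held 15309 to 24467 peaks, and tag counts were not used here. The precision of comparisons between the groups is limited by the number of libraries, not by the number of peaks. Peaks overlapping by at least 1 bp were merged, a region with several peaks of a library took the highest score, and coordinates are printed as deposited. Groups are 2 libraries each, compared by an exact permutation test for peak number and by limma 3.58.1 (trend, Benjamini-Hochberg, threshold 0.05) for ranks. The merging and the fit were tested on simulated data.

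Percentiles use the complete lists, whose lengths differ. For lists of equal length they are given at 67704 kb, and as differences between the groups for the regions called in all 4 libraries. The members, the window and the shares reported were chosen with earlier results of these data known. Named regions are those past 70650 kb, those specific to a group, those called in all 4 libraries, any that passed the rank test (none did), and the closest pair and longest interval. The regions at 67649, 67808, 68914 and 69064 kb were named after their values were seen. So were those at 68152, 69683, 69731 and 69779 kb in the last section, and the remaining members are given by counts. Gene segment names come from a RefSeq table for GRCm38, used for names only. Alternatives were a reciprocal overlap of 50%, merging within 500 bp, a score of at least 100, lists of equal length, summed scores, log2 scores, a replicate block, the V segments alone, and leaving out each library. No sequence is printed, as no mm9 genome was used here. Calculations used python 3.11.15, numpy 2.4.6, pandas 2.3.3, scipy 1.17.1, R 4.3.3 and matplotlib 3.10.9.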

Additional observations from a re-analysis of the deposited data

How the results depend on the processing

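The difference in peak number kept its sign in 7 alternatives and turned to 1.00 with lists of equal length. Equal length shortens the control lists most by construction. Leaving out a library (-8.50 to -4.50) could not turn the sign, as both TFII-I KD counts lay below both control counts. The replicate block leaves the difference unchanged by construction. Control-specific regions numbered 0 at equal length, 3 with a score of at least 100 and 2 to 9 when a library was left out, against 2. A score of 100 lies above the list medians of TFII-I KD replicates 1 and 2 (85.5 and 79.1). It lies below those of control replicates 1 and 2 (111 and 107). TFII-I KD-specific regions numbered 0 with a reciprocal overlap of 50%, 0 with a score of at least 100 and 1 to 2 when a library was left out, against 1. Leaving out a library requires fewer calls by construction. The matching shares over all regions in these alternatives are not given here, so the counts of group-specific regions cannot set the locus apart. Regions per Mb were 1.85 with a score of at least 100, 3.38 at equal length, 6.03 in the V segments alone and 4.92 to 7.08 when a library was left out, against 7.08. The share of locus regions called in all 4 libraries was 36.4% at equal length and 0% with a score of at least 100, against 17.4%. Over all regions these shares were 37.7% and 14.6%. The share of locus regions called in a single library was 36.4% and 16.7%, against 47.8%, beside 23.7% and 30.0% of all regions. With a score of at least 100 the locus had 6 regions, and its single-library share (16.7%, 0.421 to 64.1%) lay below that of all regions. These settings for the shares were added after the data were seen. The median rank difference stayed negative in 9 alternatives, from -35.0 (without TFII-I KD replicate 1) to -7.73 (equal length). The reciprocal overlap, merging within 500 bp and summed scores returned the main value of -20.4, so they are not separate checks. At equal length the regions at 67704 and 67763 kb were negative and those at 70703 and 70748 kb positive. None of the locus regions passed limma's test in 10 alternatives (smallest adjusted p 0.456, without TFII-I KD replicate 1). With a score of at least 100, no locus region was called in every library, so ranks gave no value. Over all regions limma called 0, but 3 at equal length, 11 with log2 scores, 4 with the replicate block, 210 without TFII-I KD replicate 1 and 14 without TFII-I KD replicate 2, and the cause was not tested. With the replicate block the peak difference was -6.50 (exact sign-flip p = 0.5, the smallest for 2 pairs), and 0 locus regions passed. Deviations of same-numbered libraries correlated at r = 0.0169 over 11741 regions, so the numbers were not read as pairs.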

Other observations

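Several intervals between neighbouring regions of the locus were of nearly the same length, a pattern noticed after the positions had been seen. Of the 22 intervals between centres, 6 (27.3%) measured between 45 and 50 kb, from 45.6 to 48.9 kb, while 870 of 28162 autosomal intervals (3.09%) fell in that range. The range was drawn around these 6 intervals, so the 2 shares are descriptions and cannot serve as a test. The 6 intervals were 46.7 kb after 67704 kb, 45.6 kb after 67763 kb, 48.9 kb after 68152 kb, 48.5 kb after 68866 kb, 47.5 kb after 69683 kb and 48.3 kb after 69731 kb. The 3 regions at 69683, 69731 and 69779 kb, spaced by the last 2 of these intervals, were each called in a single control library, with scores of 69.87, 65.68 and 70.86. With lists of equal length none of these 3 regions was called. Of the 6 intervals, only that after 67763 kb then kept a region at both ends. Whether sequence is repeated at this spacing was not tested.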
